A study of Mus musculus with 27 samples.

Results

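Sox9 and Klf5 are 2 of the 32285 genes in the single-cell matrices of mouse back skin, and both were followed by their own rows through skin cells taken straight from the animal, cultured hair follicle stem cells (HFSCs) and bulk RNA-sequencing (RNA-seq) of HFSC cultures. SOX9 is a transcription factor of the SOX family that HFSCs and the outer root sheath (ORS) of the hair follicle depend on, and KLF5 is a zinc-finger factor of the Krüppel-like (KLF) family that regulates epidermal stem cells (EpSCs). Each is normally read as the mark of one lineage, and cells that hold both are described as being in lineage plasticity, the state that stem cells enter when they leave one niche to repair another. Retinoic acid, the active form of vitamin A, acts on its targets through nuclear receptors of the RAR and RXR families.

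The study held 27 samples, of which the 2 in vivo single-cell libraries, the 2 cultured single-cell libraries with their hashtag tags and the 8 bulk RNA-seq libraries were used here. The in vivo libraries came from the back skin of 2 wild-type mice in anagen VI (AnaVI), the late growth phase of the hair cycle, at postnatal day 32. The cultured libraries came from HFSCs of AnaVI back skin of 2 wild-type mice. The study states that these HFSCs were taken from the mice that gave the in vivo cells, so the 2 sets are not independent animals. The bulk libraries came from telogen skin at postnatal day 55, in 4 groups of 2, wild-type or Rxra cKO HFSCs grown in serum (FBS) or in all-trans retinoic acid with an inhibitor of protein kinase C (atRA+PKCi). The atRA+PKCi medium also held the serum-free supplement B-27 in place of serum, so retinoic acid, PKC inhibition and serum removal cannot be told apart between these media. The Rxra cKO cells carried Sox9-CreER, Rxra fl/fl and a Rosa26-YFP reporter, so a difference in Sox9 between genotypes also compares cells with and without the Sox9-CreER allele, and these cannot be told apart. All bulk lines had been started on mitomycin-inactivated feeder cells. Sox9 (ENSMUSG00000000567) lies on the plus strand at chr11:112782224-112787760 and Klf5 (ENSMUSG00000005148) on the plus strand at chr14:99298691-99315036 of GRCm38, with exonic lengths of 4135 and 5201 bases in GENCODE vM21.

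The in vivo matrices held 16521 barcodes for mouse 1 and 16068 for mouse 2, of which 13625 and 13608 cells were used after removal of poor cells and called doublets, with a median of 8671 and 10463.5 unique molecules (UMIs) per cell. The 2 libraries shared 62 barcodes. The sort had kept cells negative for surface markers of immune, endothelial, fibroblast and melanocyte cells, but clusters led by the genes of each of these types were present. Clustering without Sox9 and Klf5 gave 44 clusters, of which 30 took 15 names from fixed marker lists and 14 stayed unnamed. No cluster took the name of the bulge HFSC, the basal or suprabasal epidermis, the sebaceous gland or the companion layer. Levels are given on the usual CPM scale, the UMIs of a gene relative to the total UMIs of the summed cells of each mouse, with exact Poisson 95% intervals that cover counting error only. With 2 mice, clusters were compared as a description and with no test.

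Sox9 was highest in a pair of clusters that took no name from the lists. In the cluster led by Aqp3 and Krt15 (79 and 48 cells in mouse 1 and mouse 2), Sox9 stood at 557 CPM (488 to 633) in mouse 1 and 634 CPM (555 to 721) in mouse 2. In the cluster led by Pthlh and Krt6a (252 and 221 cells), it stood at 564 CPM (530 to 600) and 555 CPM (522 to 589), and Sox9 itself was among the leading genes. The ranges of these 2 clusters over mice overlapped each other and no other cluster's. Klf5 stood at 35.6 and 52.4 CPM in the Aqp3 and Krt15 cluster, and at 35.1 and 44.8 CPM in the Pthlh and Krt6a cluster.

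Of the 5 genes of the bulge HFSC list, 4 stood at 100 CPM or more in both mice in the Aqp3 and Krt15 cluster, although the list named no cluster. Krt15, a keratin of bulge HFSCs, stood there at 11426 and 5838 CPM. Cd34, the surface protein by which HFSCs are sorted, was at 230 and 215 CPM. Lhx2, a transcription factor that maintains HFSCs, reached 256 and 375 CPM, Nfatc1, a regulator of HFSC quiescence, 140 and 154 CPM, and Tbx1 270 and 204 CPM. Postn stood at 844 and 1064 CPM, and Fgf18, the fifth gene of the list, at 52.1 and 5.51 CPM. Klf4, the KLF family member best known for the epidermal barrier, stood at 671 and 358 CPM in the same cells. In the Pthlh and Krt6a cluster Cd34 was lower, at 40.8 and 41.7 CPM, Lhx2 was at 102 and 104 CPM, and Nfatc1 was at 1.13 and 4.12 CPM, near zero.

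Among the named classes, Sox9 was high in ORS-like cells and in infundibulum-like cells, the upper part of the follicle that opens into the epidermis. ORS-like cells as a whole (876 and 1095 cells) stood at 110 and 121 CPM, but their clusters differed widely. The ORS-like cluster led by Scrg1 and Edn2 stood at 183 and 204 CPM of Sox9, the one led by Kcnb2 at 142 and 107 CPM, and the one led by Fgf5 and Ddit4l at 14.5 and 9.45 CPM. The last range overlapped that of the immune-like cluster led by Lyz2, at 18.1 and 12.1 CPM, a level that free RNA in the droplets can give. Klf5 in ORS-like cells as a whole was at 15.4 and 12.5 CPM, below the 24.5 and 26.2 CPM of those immune-like cells.

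A small cluster led by Areg, Wfdc2 and the simple-epithelial keratins Krt18 and Krt8 (112 and 52 cells) held Sox9 at 352 and 135 CPM, the widest gap between the mice among the clusters high in Sox9. A cluster led by Wfdc18 and Spp1, with the milk protein genes Csn3 and Lalba among its leading genes (81 and 57 cells), held Sox9 at 168 and 241 CPM and Klf5 at 105 and 54.4 CPM. The mice did not keep 1 order of these clusters, and the ranges of the Areg, the Wfdc18 and the Scrg1 clusters overlapped. In the cluster led by Il17b and Lama1, named mural and dermal sheath-like by its marker list, Sox9 stood at 89.3 and 67.5 CPM, below all of these. Tfap2c, a gene of the EpSC and epidermal list, was highest in this cluster, at 347 and 292 CPM, so its name does not settle whether it is epithelial.

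Klf5 was highest in the infundibulum-like cluster (307 and 298 cells), at 258 CPM (239 to 279) in mouse 1 and 272 CPM (255 to 290) in mouse 2, with no overlap with the next cluster, a level that differed widely among the cells of this cluster, as given with its subclusters. In the 4 clusters next in order, each overlapped its neighbour in the ranking but not all of the others. They were the hair shaft cortex-like cluster at 165 and 161 CPM, the inner root sheath (IRS)-like clusters at 169 and 157 CPM and at 160 and 136 CPM, and a hair matrix-like cluster at 146 and 133 CPM. Sox9 in these 4 clusters lay between 2.94 and 7.09 CPM. Matrix-like cells as a whole (1729 and 1408 cells), the proliferating cells that build the hair, stood at 79.1 and 86.1 CPM of Klf5 against 3.53 and 5.18 CPM of Sox9. The endothelial-like cluster stood at 5.64 and 1.06 CPM of Sox9, so the Sox9 level of IRS-like and matrix-like cells was within the range of cell types that should lack the gene. The infundibulum-like cluster differed from all of these in that its Sox9 level, at 153 CPM (138 to 169) and 127 CPM (116 to 140), was also above that of ORS-like cells as a whole.

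**Figure D1:**
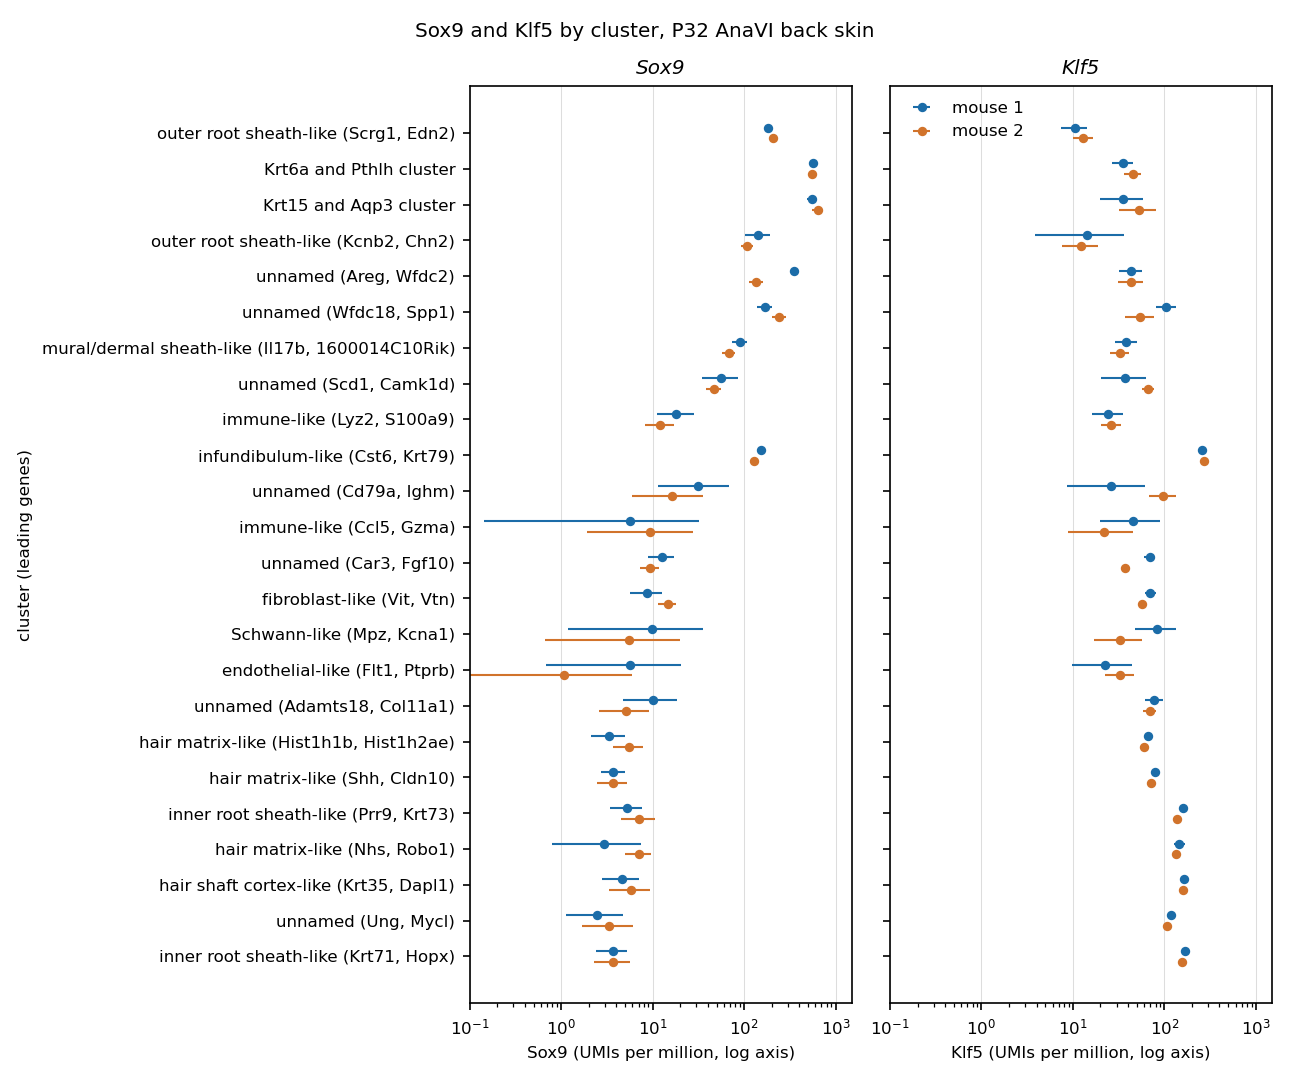
Levels of Sox9 and Klf5 in clusters of in vivo AnaVI skin, in CPM of the summed cells on a log axis, with 1 point per mouse, exact Poisson 95% intervals and clusters ordered by the ratio of the genes. Sox9 is highest in the Aqp3 and Krt15 and the Pthlh and Krt6a clusters. Klf5 is highest in the cluster named infundibulum-like at 258 and 272 CPM, a name that did not hold for its subclusters richest in Klf5. The IRS-like, cortex-like and matrix-like clusters hold Klf5 with Sox9 near 0.

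To ask whether the same cells held both transcripts, every cell was thinned at random to 3000 UMIs, and the share of cells with at least 1 UMI of each gene was set beside the product of the 2 single shares. That product is the share that detection of the genes independently of each other would give. In the infundibulum-like cluster, 29.8% of 292 cells of mouse 1 had a Sox9 UMI and 41.8% a Klf5 UMI. Both were found in 7.88% of them (exact Clopper-Pearson 95% interval 5.06% to 11.6%), below the product of 12.4%. In mouse 2, 25.5% of 286 cells had Sox9, 42.3% had Klf5 and 7.34% had both (4.60% to 11%), and the product of 10.8% was inside the interval. Joint detection in the cluster where both levels were high was in neither mouse above the product. The departure of mouse 1 was lost at other depths, with 2.96% against a product of 4.28% at 1500 UMIs and 26.1% against 30.3% without thinning, both inside the interval. In mouse 2 the product was above the interval at 1500 UMIs, at 4.54% against an upper bound of 3.92%, and inside it without thinning.

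In the Sox9-rich clusters the product was inside the interval in both mice. Joint detection cannot exceed the smaller single share, here that of Klf5. With so few Klf5 cells the interval could hardly miss the product, so these values do not show that detection was independent. In the Pthlh and Krt6a cluster, 6.81% of 235 cells (3.94% to 10.8%) and 8.76% of 217 cells (5.35% to 13.3%) held both genes, with products of 5.64% and 7.49%. In the Aqp3 and Krt15 cluster, the shares were 7.04% of 71 cells and 2.13% of 47 cells, with products of 7.22% and 4.62% and intervals as wide as 2.33% to 15.7% and 0.0539% to 11.3%. In the Wfdc18 and Spp1 cluster, 10.0% and 9.09% of cells held both, against products of 10.1% and 5.29%. In the Scrg1 and Edn2 ORS-like cluster, 0.658% of 456 cells and 0.781% of 512 cells held both, against 0.910% and 0.972%.

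The single shares set how far such values can be read. In the immune-like cluster led by Lyz2, 3.03% of 165 cells and 3.92% of 306 cells had a Sox9 UMI, and 6.06% and 4.58% a Klf5 UMI, although immune cells should lack both genes. Their median depths before thinning were 4734 and 5455 UMIs per cell, against 7606.5 and 9896.5 UMIs in the Scrg1 and Edn2 ORS-like cluster and 6427.5 and 7940 UMIs in the Pthlh and Krt6a cluster, while the thinned cells were equal in depth. The Klf5 share of the Scrg1 and Edn2 ORS-like cluster, at 2.41% and 2.54%, was below that background and was read as background. The same held for the Sox9 share of the IRS-like clusters, at 1.13% and 0.802% and at 0.921% and 2.63%, and of the cortex-like cluster, at 0.484% and 0.402%. Joint detection in those clusters therefore says nothing about cells that express both genes. After thinning, 0 of 165 and 0 of 306 cells of this immune-like cluster held both genes, where 3 counts would be 1.82% and 0.980%, and before thinning 2 and 1 of its cells did. In the Pthlh and Krt6a cluster the Klf5 share, at 7.66% and 11.1%, was above that of these immune-like cells in both mice, with no interval given for the shares. Its Klf5 level, at 35.1 and 44.8 CPM, was above the 24.5 and 26.2 CPM of these cells and the 22.5 and 33.0 CPM of endothelial-like cells. It overlapped that of the immune-like cluster led by Ccl5 (39 and 51 cells), at 45.7 and 21.9 CPM. Skeletal muscle-like cells, at 42.5 and 41.5 CPM, overlapped it too, but whether their level is background was not tested. Expression above background was thus neither shown nor excluded. In the Aqp3 and Krt15 cluster the Klf5 share, at 9.86% and 6.38%, rested on 7 and 3 cells.

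**Figure D2:**
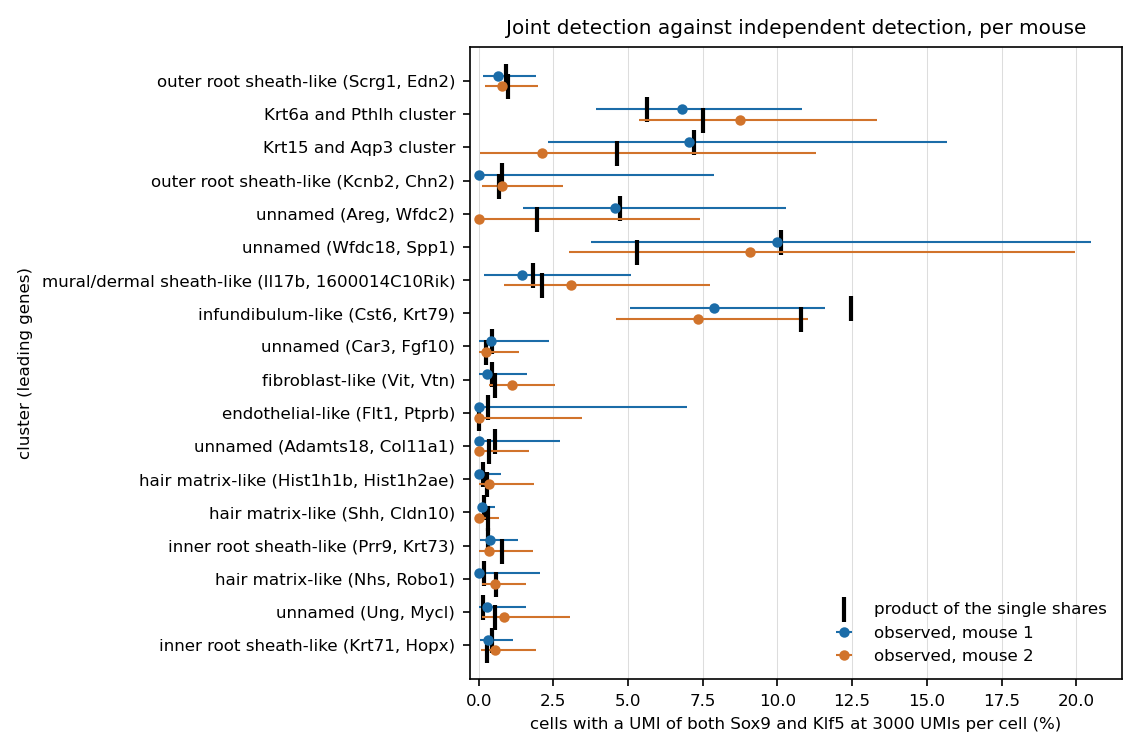
Share of cells with a UMI of both Sox9 and Klf5 after thinning to 3000 UMIs per cell, by cluster and mouse, with exact Clopper-Pearson 95% intervals and a black tick at the product of the single shares. The tick lies inside the interval in each cluster and mouse drawn except the infundibulum-like cluster of mouse 1, where the product of 12.4% is above the interval of 5.06% to 11.6% at this depth.

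Over the clusters with at least 50 thinned cells, the product was inside the interval in 35 and above it in 1 for mouse 1, and inside it in 35 and below it in 1 for mouse 2. The last was a cluster led by H19 and Dlk1 with no name, in which 0.887% of 564 cells held both genes against a product of 0.277%, and its single shares, at 2.84% for Sox9 and 9.75% for Klf5, put Sox9 below the background. The same share was computed for Sox9 or Klf5 with Polr2a, Tbp, Hprt and Trp63, genes used here as references. Of 704 such pairs over clusters and mice, the product was inside the interval in 703, and in the infundibulum-like cluster it was inside in 16 of 16. No minimum of cells was set for these pairs. With few cells or low single shares the interval can hardly miss the product, so the count of 703 does not calibrate the result for Sox9 with Klf5. In the infundibulum-like cluster, Sox9 and Trp63, the master factor of stratified epithelia, were found together in 20.5% and 21.3% of cells against products of 21.0% and 20.1%. Klf5 and Trp63 were found together in 30.8% and 33.6% against 29.5% and 33.3%. The clusters named for the ORS, infundibulum, matrix, IRS, cortex and hair shaft medulla were pooled with the Aqp3 and Krt15 and the Pthlh and Krt6a clusters. These were 13 clusters (9827 of 27233 cells), and the other unnamed clusters, the Areg and the Wfdc18 clusters among them, were left out. In this pool both genes were found in 1.00% of 5277 cells and 1.25% of 4320 cells. The product of the pooled shares was 2.20% and 2.44%, and the product computed within clusters and then summed was 1.29% and 1.53%.

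Cells with both genes were deeper than others. Before thinning, 469 cells of mouse 1 and 545 of mouse 2 held both genes, with a median of 11328 and 14182 UMIs against 8869 and 10594 UMIs in all cells. Scrublet called 17.7% and 4.95% of them doublets, against 5.76% and 2.21% of all cells. The part of doublets and depth in joint detection was not tested apart from the removal of called doublets and the thinning.

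The infundibulum-like cluster was divided further, without Sox9 and Klf5, and held 8 subclusters in which the genes were high in different cells. This division was chosen after the data were seen. In the subcluster led by Gm12068, Cst6 and Sprr1a (56 and 29 cells), with the infundibulum keratin Krt79 at 6898 and 6859 CPM, Sox9 stood at 299 CPM (249 to 355) and 357 CPM (290 to 436). In the subcluster led by Fst, Ccl2 and Vsnl1 (77 and 60 cells), it stood at 257 and 256 CPM, and in that led by 2310046K23Rik and Pglyrp4 (43 and 31 cells) at 226 and 270 CPM. Klf5 in these 3 subclusters lay between 118 and 208 CPM. They were the subclusters in which both genes were above 100 CPM in both mice.

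Klf5 was highest in a pair of subclusters that had almost no Krt79 and almost no Sox9. In the subcluster led by Krt1 (31 and 47 cells), with the suprabasal keratin Krt10 at 10608 and 7610 CPM, Klf5 stood at 462 and 525 CPM, and Sox9 had 0 UMIs in mouse 1 and 2 UMIs in mouse 2. In the subcluster led by Igfbp3, Gm48893 and Col23a1 (48 and 50 cells), with Krt14 at 9646 and 11475 CPM, Klf5 stood at 472 and 490 CPM and Sox9 at 17.3 and 5.63 CPM. Krt79 was at 0 in both mice in the first, and at 0 and 5.63 CPM in the second. The infundibulum list summed to 294 and 263 CPM in the first and 187 and 186 CPM in the second, against 52865 and 47424 CPM in the Cst6 and Sprr1a subcluster, so the class name did not hold for these cells, which are called here by their leading genes. The suprabasal epidermis list summed to 28691 and 21211 CPM in the first, and the basal epidermis list to 18503 and 21914 CPM in the second. Each was the highest sum of that list among the subclusters, so by these lists the cells were epidermis-like. In the subclusters with the most Krt79, led by Cst6 and by 2310046K23Rik, Klf5 stood at 184 and 118 CPM and at 138 and 136 CPM. The first range overlapped that of the cortex-like cluster and the second lay below it, so the first place of the infundibulum-like cluster for Klf5 was not held by the cells richest in Krt79.

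The other 3 subclusters were smaller or mixed. The one led by Fa2h, Soat1 and Cidea (20 and 47 cells), genes of lipid synthesis and storage, held Sox9 at 151 and 150 CPM and Klf5 at 26.3 and 34.3 CPM. Its sebaceous gland list summed to 5186 and 3734 CPM, the highest sum of that list among the subclusters, so by that list these cells were sebaceous gland-like. The cycling subcluster led by Nusap1 and Hist1h1b (24 and 26 cells) held Sox9 at 68.0 and 56.4 CPM and Klf5 at 219 and 308 CPM. The subcluster led by Sparc, Tnfaip6 and Col1a2 (8 and 8 cells) held Klf5 at 319 and 215 CPM, and its fibroblast list summed to 19580 and 54878 CPM.

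In the 3 subclusters with both genes, the product was inside the interval in both mice. With 29 to 72 thinned cells per mouse in each, the intervals were wide, as at 5.85% to 35.8% and 9.93% to 42.3% in mouse 2. Such intervals can hardly miss the product, so they do not show that detection was independent. In the Cst6 and Sprr1a subcluster 19.6% and 17.2% of cells held both genes, against products of 19.7% and 12.5%. In the Fst and Ccl2 subcluster the shares were 11.1% and 16.7% against 13.3% and 14.4%, and in the 2310046K23Rik subcluster 9.52% and 23.3% against 10.7% and 18.7%. Summed over all 8 subclusters, the products within subclusters came to 9.22% and 7.10% of cells, inside the intervals around the observed 7.88% and 7.34%, where the product over the cluster as a whole had been 12.4% and 10.8%. The gap between observed and product in mouse 1 was thus smaller once the division into Sox9-rich and Klf5-rich subclusters was taken into account.

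**Figure D3:**
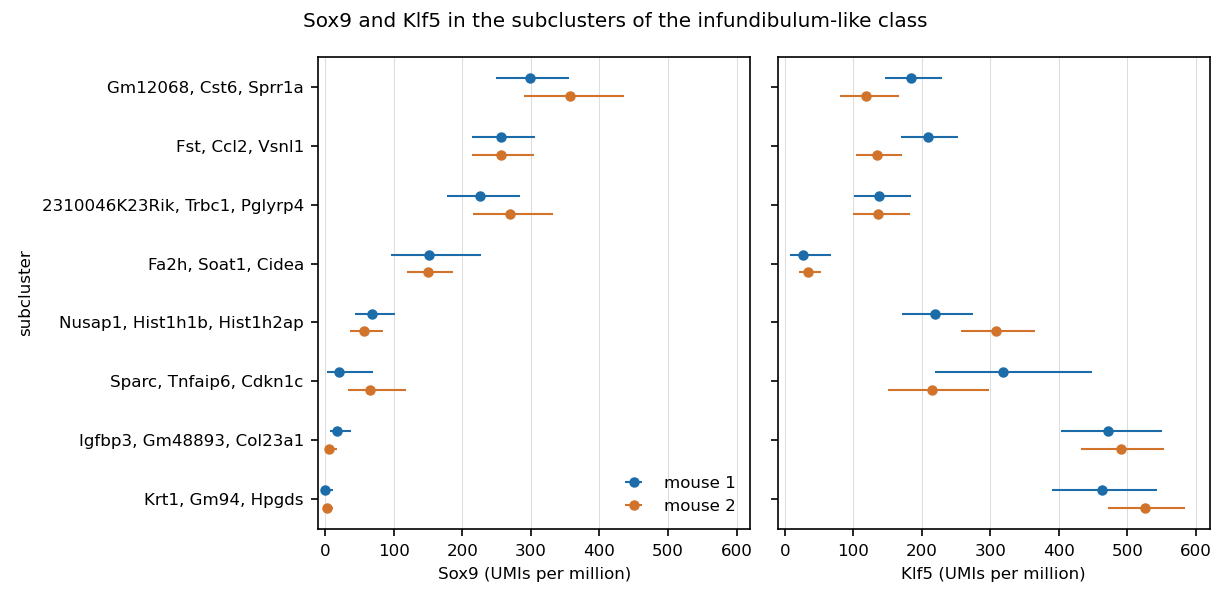
Sox9 and Klf5 in 8 subclusters of the infundibulum-like cluster, in CPM of the summed cells per mouse with exact Poisson 95% intervals. Klf5 is near 500 CPM in the Krt1 and the Igfbp3 subclusters, where Sox9 is near 0, while the Cst6 and Sprr1a, Fst and Ccl2 and 2310046K23Rik subclusters hold both genes above 100 CPM.

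ORS-like cells divided in the same way held 6 subclusters. Sox9 was highest in that led by Scrg1, Nppc and Sfrp1, at 236 and 255 CPM, and lowest in those led by Cpa6 and Ddit4l, at 22.1 and 12.6 CPM, and by Mt1, Mycl and Lgr6, at 5.65 and 31.1 CPM. Klf5 was at 11.8 and 11.6 CPM in the first of these and at 36.4 and 24.0 CPM in the last.

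Across 29 classes, the log2 levels of Sox9 and Klf5 had a Pearson correlation of 0.03. The genes most like Sox9, of 11757 eligible, were Eppk1 (r = 0.849), Barx2 (0.837), Chdh (0.810), Irx5 (0.808) and Irx3 (0.799). Barx2, a homeobox gene that was also in the ORS marker list, stood at 1033 and 1152 CPM in the Aqp3 and Krt15 cluster and at 225 and 247 CPM in the infundibulum-like cluster. Genes most like Klf5 included Gm20219 (r = 0.725), Uchl3 (0.702), Pou2f3 (0.70) and Zfp750 (0.693). Zfp750, a regulator of epidermal differentiation, stood at 137 and 94.9 CPM in the infundibulum-like cluster and at 209 and 225 CPM in the IRS-like cluster highest in Klf5. These correlations are over classes of the same 2 libraries, which share their cells' depth and free RNA.

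Other family members were high in other classes. Of the 19 SOX genes listed, 7 reached 50 CPM in a class in both mice, and of the 17 KLF genes 10 did. Sox4 and Sox5 passed 50 CPM in 29 of 29 classes, against 6 for Sox9. Sox10 and Sox6, at 238 and 178 CPM and at 275 and 339 CPM, were highest in melanocyte-like cells, Sox17 in endothelial-like cells and Sox21 in cortex-like cells, at 127 and 104 CPM. Klf4, Klf6, Klf9 and Klf13 passed 50 CPM in 20 to 27 classes, against 7 for Klf5. Klf3 was highest in the class named infundibulum-like, at 226 and 196 CPM. Sox17, Sox21 and Klf3 were named after their values were seen. All 10 genes of the HFSC list reached 50 CPM in a class in both mice, as did 9 of the 10 EpSC and epidermal genes, the exception being Grhl3. The share of all genes that reach 50 CPM was not computed, while 11757 of the 32285 genes reached 20 CPM in a class in both mice. By the lower value of the 2 mice, Cd34, Klf4 and Ly6a were highest in fibroblast-like cells, so these counts do not place the lists in follicle or epidermis.

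The bulk libraries compared the same 2 genes between the FBS and atRA+PKCi media and between wild-type and Rxra cKO HFSCs. Libraries held 25150162 to 35879630 counts, and edgeR's quasi-likelihood test was run over 15965 genes with Benjamini-Hochberg adjustment and an adjusted p under 0.05 as the threshold. Bulk levels are in CPM of each library's TMM-scaled total, and in a bulk sample fewer cells of a type and less RNA per cell cannot be told apart. All libraries were keratinocyte-like, with Krt5 between 8958 and 12333 CPM, while Cd34 and Lhx2, defining markers of HFSCs in skin, were below 3 CPM in every library. The 7 fibroblast markers, which feeder cells would also hold, summed to between 1.35 and 11.6 CPM per library, with Lum at 0 in all 8. Their part in the results was not tested. Rxra itself was at 149 and 122 CPM in wild-type FBS, 147 and 143 CPM in wild-type atRA+PKCi, 97.2 and 95.7 CPM in Rxra cKO FBS and 148 and 145 CPM in Rxra cKO atRA+PKCi. A count over the gene as a whole does not check a deletion of a few exons, so the genotype labels were not checked by it.

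In wild-type HFSCs, Sox9 was higher and Klf5 lower in atRA+PKCi than in FBS. Sox9 stood at 105 and 81.8 CPM in FBS and at 173 and 156 CPM in atRA+PKCi, a log2 fold change of 0.82 ± 0.11 (SE, adjusted p = 0.000304 by edgeR). Klf5 stood at 154 and 132 CPM in FBS and at 83.4 and 81.9 CPM in atRA+PKCi, a log2 fold change of -0.79 ± 0.08 (adjusted p = 5.8e-05 by edgeR). The libraries of the 2 media did not overlap for either gene. Of all genes tested, 53.9% passed the same threshold, 27.2% higher and 26.6% lower in atRA+PKCi, so a call of 2 genes out of 2 is read against that background. Divided by exonic length, the ratio of Sox9 to Klf5 was 0.817 ± 0.055 in FBS and 2.51 ± 0.15 in atRA+PKCi (SD, n = 2).

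In Rxra cKO HFSCs the same change of medium gave smaller differences. Sox9 stood at 70.1 and 74.9 CPM in FBS and at 88.4 and 92.1 CPM in atRA+PKCi, a log2 difference of 0.32 ± 0.11 that just missed the threshold (adjusted p = 0.0502 by edgeR), though the libraries did not overlap. Per the sample labels, libraries of a genotype with the same number came from skin of the same mouse, and with the mouse as a replicate block the difference of 0.32 passed (adjusted p = 0.0131 by edgeR). Klf5 stood at 101 and 96.5 CPM in FBS and at 100 and 94.8 CPM in atRA+PKCi, with a log2 difference of -0.02 ± 0.08 (adjusted p = 0.862 by edgeR) and overlapping libraries. Of all genes, 43% passed in this comparison, 20.8% higher and 22.2% lower in atRA+PKCi. The length-corrected ratio of Sox9 to Klf5 was 0.923 ± 0.076 in FBS and 1.17 ± 0.08 in atRA+PKCi (SD, n = 2).

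The test of the difference between the 2 genotypes' responses was passed by both genes, as it was by 24.6% of all genes (11.3% higher and 13.3% lower in wild-type). The response of Klf5 was lower in wild-type by 0.77 ± 0.12 on the log2 scale (adjusted p = 0.00179 by edgeR). That of Sox9 was higher in wild-type by 0.51 ± 0.16 (adjusted p = 0.0483 by edgeR), which lay just inside the threshold. The Sox9 call was lost on leaving out any 1 of 7 of the 8 libraries, with differences of 0.34 to 0.58 and adjusted p of 0.0563 to 0.177 by edgeR. The exception was wild-type FBS replicate 1, without which the difference was 0.69 (adjusted p = 0.00329 by edgeR).

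Set side by side within a medium, the genotypes differed for both genes in FBS, where 42.8% of all genes passed (22.3% higher and 20.5% lower in Rxra cKO), and in atRA+PKCi, where 43.2% passed (23% higher and 20.2% lower). In FBS, Sox9 was lower in Rxra cKO by a log2 fold change of -0.36 ± 0.11 (adjusted p = 0.0294 by edgeR) and Klf5 by -0.53 ± 0.08 (adjusted p = 0.000976 by edgeR). In atRA+PKCi, Sox9 was lower in Rxra cKO, with -0.87 ± 0.11 (adjusted p = 0.000315 by edgeR), and Klf5 was higher, with 0.24 ± 0.08 (adjusted p = 0.0443 by edgeR). In all 4 comparisons the libraries of the genotypes did not overlap. The Sox9 call in FBS was lost without wild-type FBS replicate 1 (-0.17, adjusted p = 0.154 by edgeR), Rxra cKO FBS replicate 1 (-0.33, 0.123) or 2 (-0.41, 0.0736), or Rxra cKO atRA+PKCi replicate 2 (-0.36, 0.0534). The Klf5 call in atRA+PKCi was lost without either wild-type atRA+PKCi library, either Rxra cKO atRA+PKCi library or Rxra cKO FBS replicate 2, with log2 fold changes of 0.23 to 0.28 and adjusted p of 0.0595 to 0.169 by edgeR.

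**Figure D4:**
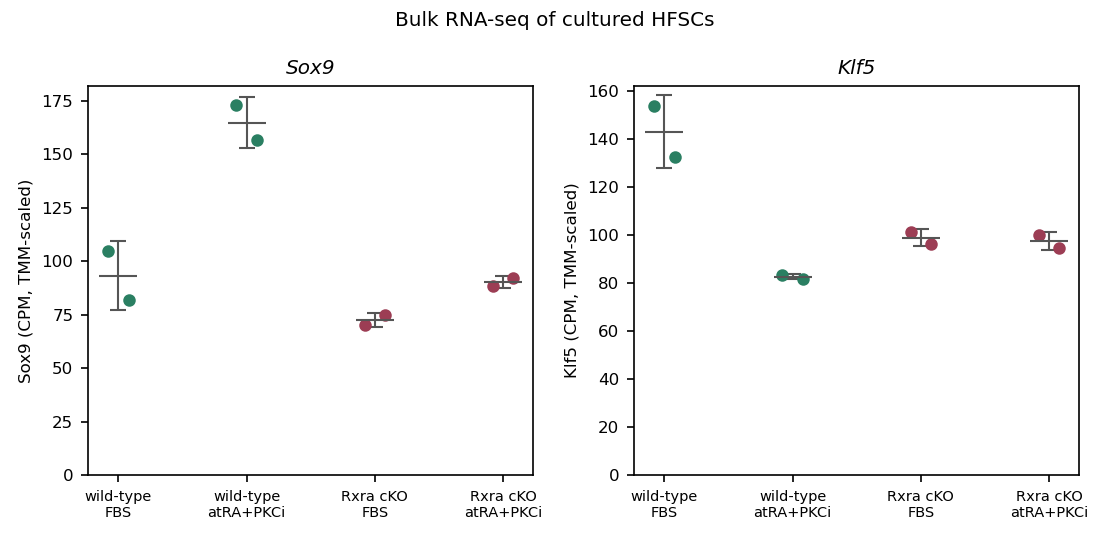
Sox9 and Klf5 in the 8 bulk RNA-seq libraries in CPM, with points for libraries and bars for the mean ± SD of each group (n = 2). In wild-type HFSCs Sox9 is higher and Klf5 lower in atRA+PKCi with no overlap of libraries, while in Rxra cKO HFSCs the Klf5 libraries of the 2 media overlap near 100 CPM.

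Most KLF genes fell in wild-type HFSCs. Of 14 KLF genes tested, Klf5 among them, 9 fell, 3 rose and 2 did not pass in atRA+PKCi against FBS, where 26.6% of all genes fell and 27.2% rose, with a median log2 difference of -0.60 where all genes had a median of 0.03. Klf4 fell by 1.56 on the log2 scale, from a mean of 267 to 90.4 CPM. Klf7 fell by 1.38, Klf13 by 1.07, Klf6 by 0.63 and Klf10 by 0.56, while Klf9, a target of steroid and thyroid hormone receptors, rose by 0.54. In Rxra cKO HFSCs, 5 of the 14 fell, 3 rose and 6 did not pass, with a median of -0.10 against 0.02 for all genes. There Klf4 fell by 0.88 and Klf7 by 0.92, and Klf6 (-0.13) and Klf10 (0.00) did not pass.

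The SOX genes did not move one way. Of 11 SOX genes tested, Sox9 among them, 4 rose, 3 fell and 4 did not pass in wild-type HFSCs, with a median of 0.24, against 27.2% of all genes that rose and 26.6% that fell. Sox12 rose by 1.47 and Sox11 by 0.64 beside Sox9, Sox15 fell by 0.31, and Sox4 had a log2 difference of 0.04 (adjusted p = 0.696 by edgeR). In Rxra cKO HFSCs, Sox12 and Sox11 rose too, by 1.13 and 1.23, and 5 of 11 rose, 2 fell and 4 did not pass. Between genotypes in atRA+PKCi, Sox11 was higher in Rxra cKO, at 1.43, and Sox12 lower, at -0.54, beside the -0.87 of Sox9.

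The EpSC and epidermal list, which holds Klf4, fell in wild-type atRA+PKCi in 9 of 10 genes, against 26.6% of all genes, with a median of -1.34. The suprabasal keratins Krt1 and Krt10 fell by 4.91 and 4.47, the barrier regulators Grhl1 and Grhl3 by 2.95 and 2.02, Tfap2c by 0.79 and Trp63 by 0.53, while Gata3 rose by 0.72. In Rxra cKO HFSCs 5 of the 10 fell, 3 rose and 2 did not pass, where 22.2% of all genes fell and 20.8% rose. Krt1 rose there by 3.70 and Krt10 by 1.64, opposite to wild-type HFSCs. Of the HFSC list, 8 of 10 genes were tested, of which 4 rose, 1 fell and 3 did not pass in wild-type HFSCs, against 27.2% and 26.6% of all genes. Krt15 went from 3.65 and 4.75 CPM to 4576 and 4430 CPM, and Nfix, Nfib and Tcf7l2 rose by 0.80, 0.80 and 0.95. In Rxra cKO HFSCs, Krt15 went from 6.51 and 8.23 CPM to 251 and 245 CPM. The G2/M genes moved between the groups as well, with 6 of 6 lower in Rxra cKO atRA+PKCi than in Rxra cKO FBS at a median of -1.28, against 22.2% of all genes, and 3 of 6 lower in wild-type, against 26.6%, and their part in the Sox9 and Klf5 differences was not tested.

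For the cultured single cells, HFSCs sorted for CD34 from AnaVI back skin were grown for 2 passages and then in 3D cultures, and the cells of each culture were tagged with an antibody that carries an oligonucleotide of its own before being pooled. The oligonucleotides decide which culture a cell is counted in, so they are given here, 5′ to 3′.
FBS: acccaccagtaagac
B-27: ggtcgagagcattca
atRA+PKCi: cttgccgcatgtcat
Rspo: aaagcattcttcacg
BMP2/4: ctttgtctttgtgag
Rspo+BMP2/4: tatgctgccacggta
Rspo+BMP2/4+RARi: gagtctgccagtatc

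Rspo stands for R-spondin, an amplifier of WNT signals, BMP2/4 for the growth factors BMP2 and BMP4, and RARi for an inhibitor of the retinoic acid receptor. The cultures with Rspo, BMP2/4 or RARi also held atRA+PKCi. After filters, 222 cells of mouse 1 and 78 of mouse 2 had 1 tag, with a median of 29434.5 and 21523 UMIs and no barcode shared between mice. No cell was left with the FBS tag, and atRA+PKCi had 2 and 1 cells, which were given no test. Counts were summed per mouse and tag and tested with edgeR over 6265 genes, with 10 sums in 5 conditions.

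Sox9 was lowest where RAR was inhibited, and its highest values came from the 2 and 1 atRA+PKCi cells, too few to rank that condition. Sox9 was detected in 1 of the 2 atRA+PKCi cells of mouse 1 and in 2 of the 6 Rspo cells of mouse 2. It stood at 153 and 200 CPM in B-27 (5 and 10 cells of mouse 1 and mouse 2), 362 and 408 CPM in atRA+PKCi, 139 and 193 CPM in Rspo (5 and 6 cells), 256 and 276 CPM in BMP2/4 (113 and 13 cells) and 196 and 176 CPM in Rspo+BMP2/4 (92 and 27 cells). With RARi added (5 and 21 cells) it stood at 31.2 CPM in mouse 1, from 3 UMIs, and 69.7 CPM in mouse 2, from 42 UMIs. Neither mouse's RARi value overlapped the values without RARi. The log2 difference was -1.83 ± 0.55, with an unadjusted p of 0.00336 and an adjusted p of 0.959 over all genes by edgeR, so it did not pass. Of all genes, 0% passed in that comparison by edgeR or DESeq2, and 232 were under an unadjusted p of 0.05.

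Klf5 varied less among these cultures. It stood at 201 and 137 CPM in B-27, 107 and 159 CPM in atRA+PKCi, 73.0 and 124 CPM in Rspo, 71.2 and 84.2 CPM in BMP2/4, 95.2 and 105 CPM in Rspo+BMP2/4 and 125 and 141 CPM with RARi. Between BMP2/4 and B-27, where 10.4% of genes passed (1.53% higher and 8.84% lower in BMP2/4), neither gene did. The BMP2/4 cultures also held atRA+PKCi, so BMP2/4, retinoic acid and PKC inhibition cannot be told apart in this comparison. Klf5 had a log2 difference of -1.0 ± 0.46 (adjusted p = 0.183 by edgeR) and Sox9 one of 0.68 ± 0.51 (adjusted p = 0.422 by edgeR). The values of both genes in the 2 mice did not overlap between these conditions. In the same comparison 4 of 9 KLF genes fell, namely Klf3, Klf4, Klf7 and Klf12, by 2.17, 2.09, 2.15 and 4.66, and 0 of 3 SOX genes passed. Klf3 and Klf12 were named after their values were seen. Between Rspo+BMP2/4 and BMP2/4, Sox9 had a log2 difference of -0.55 ± 0.49 and Klf5 one of 0.33 ± 0.43, both with an adjusted p of 1 by edgeR. Of all genes, 0% passed there by edgeR or DESeq2, with 44 under an unadjusted p of 0.05.

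**Figure D5:**
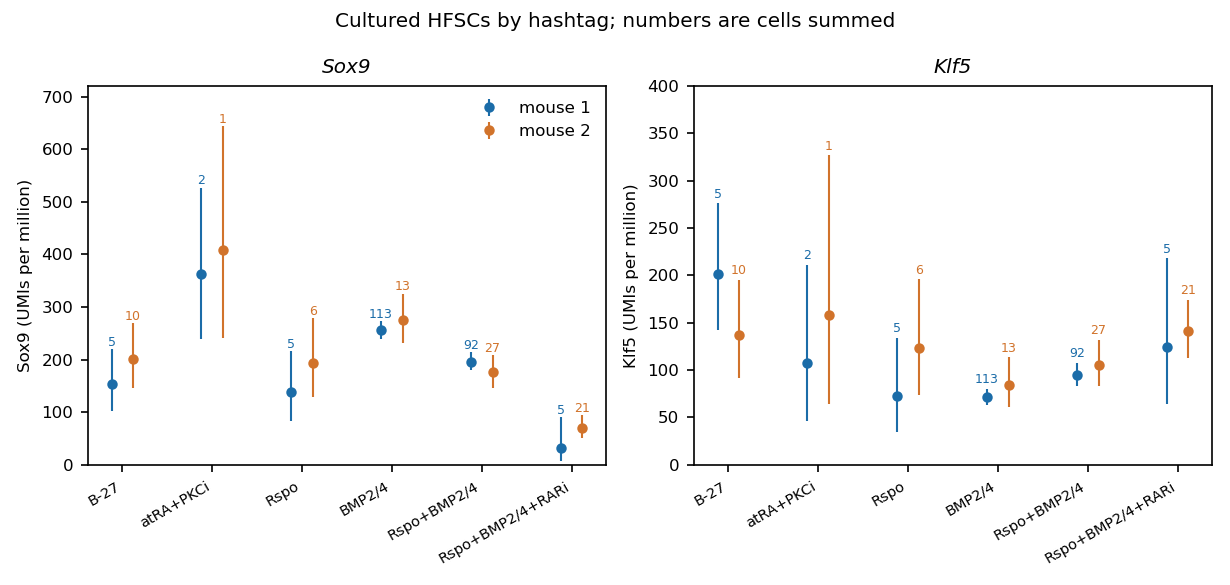
Sox9 and Klf5 in cultured HFSCs by culture condition and mouse, in CPM of the summed cells with exact Poisson 95% intervals and the number of cells beside each point. Sox9 in Rspo+BMP2/4+RARi, at 31.2 and 69.7 CPM, lies below the other conditions in both mice.

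In culture, the intervals of joint detection held the product in the conditions with enough cells to read. At 3000 UMIs per cell, 7.77% of 103 BMP2/4 cells of mouse 1 held both genes (3.41% to 14.7%) against a product of 8.65%, and 8.97% of 78 Rspo+BMP2/4 cells (3.68% to 17.6%) against 6.99%. At 15000 UMIs per cell, a depth chosen after seeing that the cultured cells were deep, the shares were 48.3% and 58.9% against products of 48.1% and 58.7%. Sox9 alone was detected there in 91.0% of BMP2/4 cells and 80.8% of Rspo+BMP2/4 cells. That leaves joint detection little room to depart from the product, so this closeness does not show that detection was independent. In mouse 2, 12.5% of 24 Rspo+BMP2/4 cells and 16.7% of 18 cells with RARi held both at 3000 UMIs, against 13.9% and 7.41%, with the product inside intervals that reached 32.4% and 41.4%. The other sums had 10 or fewer cells, too few for the product to be set against them.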

How the data were processed

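For bulk RNA-seq, the authors deposited estimated counts per gene, made with Salmon 1.4.0 and tximport on mm10, and a second table of a normalized signal per gene, used here only in alternatives. The single-cell values that the authors deposited are whole UMI counts from Cell Ranger 7.0.1, before removal of free RNA or doublets. Estimated counts were rounded and tested by the quasi-likelihood method of edgeR 4.0.16 under R 4.3.3, after filterByExpr and TMM scaling and with Benjamini-Hochberg adjustment, in 1 fit of 4 group means over 8 libraries, with TMM factors of 0.883 to 1.08. Per the labels, same-numbered libraries of a genotype came from the same mouse, though their deviations from the group means correlated at only 0.067 in wild-type and -0.019 in Rxra cKO. In the cultured cells these correlations ran from -0.292 to 0.250. Nothing states separate cultures per mouse, so p-values measure the spread between these samples.

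A cell needed at least 500 genes and 1000 UMIs, with mitochondrial UMIs under 10%. In vivo doublets were called with Scrublet (833 and 307 cells). Clusters were made in scanpy 1.11.5 (3000 variable genes without Sox9 and Klf5, 30 components, 20 neighbors, resolution 1.5, seed 11) and named where a fixed marker list scored at least 1 with 3 markers in 10% of cells. HTODemux of Seurat 5.3.0 gave each cultured cell its hashtag, and sums of at least 5 cells were tested as above. Joint detection was computed by thinning cells to 3000 UMIs and leaving out shallower ones, with exact 95% intervals. Fits and joint detection were tested on simulated data.

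Both genes, the lists and the tests were chosen with earlier results of these data known. Genes named from the SOX, KLF, HFSC and EpSC lists are those that passed a bulk test with a group mean of at least 10 CPM or reached 50 CPM in an in vivo class in both mice, at most 8 per list. The genes most alike were taken by Pearson correlation of log2(CPM + 1) over classes, among genes at 20 CPM or more. One result of that ranking is not reported here. Alternatives were DESeq2 1.42.0, limma 3.58.1, the replicate block, a test without the filter on low counts, each library left out in turn, stricter filters on cells, doublets kept, another resolution (1), thinning to 1500 UMIs or none, detection at 2 UMIs, no mitochondrial limit, at least 10 cells per sum, and hashtags by a share of 70%. Samples of ATAC-seq and CUT&RUN were not used here.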

Additional observations from a re-analysis of the deposited data

Results flagged for a closer look

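These results were singled out because the difference between media itself differed between wild-type and Rxra cKO HFSCs in the bulk libraries, by edgeR's interaction test with an adjusted p under 0.05. Each value is the log2 difference of atRA+PKCi against FBS in wild-type minus that in Rxra cKO. Among all genes, 24.6% passed this test, so a gene on this list is read against that share. Sox9 stood at 0.51 (adjusted p = 0.0483) and Klf5 at -0.77 (adjusted p = 0.00179).

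Other KLF genes with a lower response in wild-type were Klf4 at -0.69 (adjusted p = 0.00416), Klf10 at -0.57 (0.00621), Klf6 at -0.50 (0.00779) and Klf7 at -0.46 (0.0303). In the HFSC list, Krt15 stood at 5.00 (adjusted p = 2.01e-06), with a rise in both genotypes that was larger in wild-type.

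In the EpSC and epidermal list, Krt1 stood at -8.61 (adjusted p = 1.26e-05) and Krt10 at -6.11 (1.74e-06), both of which fell in wild-type and rose in Rxra cKO HFSCs. Grhl1 stood at -2.33 (2.91e-05), Tfap2a at -1.01 (0.00217), Grhl3 at -0.76 (0.00721), Tfap2c at -0.65 (0.00404) and Ly6a at -0.60 (0.0120). In the libraries of Rxra cKO atRA+PKCi the 6 G2/M genes were lower than in wild-type atRA+PKCi, 6 of 6, against 20.2% of all genes. The part of cycling in these differences was not tested. With 2 libraries per group, no sample could be examined for standing apart from its group.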

How the results depend on the processing

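The Sox9 and Klf5 differences between media in wild-type HFSCs, the Sox9 difference between genotypes in atRA+PKCi, and the Klf5 difference between genotypes in FBS and in the response to medium kept their direction and their call in all alternatives run, which were DESeq2, no filter on low counts, the 4 libraries compared alone, limma on the deposited normalized values at pseudocounts of 1 and 0.5, the replicate block where it could be fitted, and leaving out each library. For Sox9 in Rxra cKO atRA+PKCi against FBS, the call was gained with DESeq2 (0.32, adjusted p = 0.0245), no filter (0.31, 0.00229), the replicate block (0.32, 0.0131) and the 4 libraries alone (0.31, 0.00436), and leaving out a library gave 0.29 to 0.37 (0.00691 to 0.199). The replicate block changed no other call of Sox9 or Klf5, in bulk or in the cultured cells. Sox9 in Rxra cKO against wild-type FBS missed the threshold in the 4 libraries alone (-0.36, adjusted p = 0.0661) and with limma (-0.35 and -0.36, 0.0511 and 0.0530), with -0.53 to -0.17 on leaving out a library. Klf5 in Rxra cKO against wild-type atRA+PKCi missed it with limma (0.27 and 0.27, 0.0507 and 0.0520), with 0.23 to 0.28 on leaving out a library. The Sox9 interaction missed it with limma (0.48 and 0.48, 0.0919 and 0.0948), with 0.34 to 0.69 on leaving out a library. The Klf5 difference between media in Rxra cKO turned positive without wild-type atRA+PKCi replicate 1 (0.0026), Rxra cKO FBS replicate 1 (0.042) or Rxra cKO atRA+PKCi replicate 2 (0.017), in a range of -0.059 to 0.042. The cause was not tested for these changes, apart from the fewer libraries of the smaller fits.

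In the cultured cells, leaving out a sum gave -3.14 to -1.44 for Sox9 and -0.24 to 0.48 for Klf5 with RARi against without. Without mouse 2 of the RARi condition, Sox9 was at -3.14 (adjusted p = 0.0237), Klf5 at -0.24, and 730 genes were called in place of 0. Genes called in BMP2/4 against B-27 numbered 650, with 1075 without the mitochondrial limit, 1128 with hashtags taken by share, and 163 to 393 without a sum of either condition. Genes called in Rspo+BMP2/4 against BMP2/4 numbered 0 to 12, and with RARi 0 to 12, over the alternatives other than leaving out a sum. In bulk, leaving out a library gave 4543 to 7614 genes called in the Rxra cKO media comparison, in place of 6861, and 2392 to 4335 for the interaction, in place of 3924.

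For the in vivo classes, the mean levels moved by more than the spread between mice in these cases. With at least 1000 genes and under 5% mitochondrial UMIs, Sox9 in ORS-like cells was 154 CPM, and Klf5 was 304 CPM in infundibulum-like and 71.9 CPM in matrix-like cells. With called doublets kept, Klf5 was 249.99 CPM in infundibulum-like and 71.5 CPM in matrix-like cells. At another clustering resolution, matrix-like cells had Klf5 at 72.1 CPM and Sox9 at 6.48 CPM. The ratio of observed joint detection to the product moved in infundibulum-like cells to 0.53 at 1500 UMIs, 0.86 without thinning and 0.86 for detection at 2 UMIs. The product of 12.4% above the interval in mouse 1 was lost at each of these, where it was inside, while in mouse 2 it was above the interval at 1500 UMIs. In ORS-like cells it moved to 1.13 with the stricter filter, 1.04 at 1500 UMIs and 1.02 without thinning. In matrix-like cells it moved to 0.83 at the other resolution, 1.10 at 1500 UMIs, 1.08 without thinning and 1.115 at 2 UMIs. In IRS-like cells, which have few Sox9 UMIs, it moved to 1.31 with the stricter filter, 0.22 at 1500 UMIs, 0.95 without thinning and 1.56 at 2 UMIs. No alternative could be given for suprabasal-like cells, since no cluster took that name. The Pthlh and Krt6a cluster, followed across these settings after its values were seen, had Sox9 between 466 and 658 CPM.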
